A study of Mus musculus with 18 samples.

Results

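The 7 genes described here belong to the axon degeneration pathway that turns on NAD, namely Sarm1, Nmnat1, Nmnat2, Nmnat3, Nampt, Mycbp2 and Fbxo45, and were followed after axotomy of cultured embryonic sensory neurons. The rule that sets these 7 genes, of the 47643 counted in each library, is a list of names and uses no measured value. All 7 were found in the count tables, 6 passed the filter on low counts and were tested, and Nmnat3 did not. The RNA came from dorsal root ganglia of e13.5 CD-1 mouse embryos, grown as spots (eDRG spot) in medium with the mitotic inhibitor FDU, which removes dividing cells. The control group was 3 uninjured cultures collected on day 7 in vitro (DIV7). In the other 5 groups the axons had been cut with a blade, and 3 cultures each were taken 1 h, 3 h, 8 h, 16 h or 24 h later (hours post injury, HPI), so that 18 libraries were compared. The sample labels put the collection of every group on DIV7, whereas the study's text puts the cut on DIV7, so that it is not settled whether the injured cultures were of the same age as control. No label says whether replicates came from separate litters, so p-values measure the spread between these libraries.

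As background, NAD in neurons is made mainly by salvage. Nampt turns nicotinamide into nicotinamide mononucleotide (NMN), and the NMNAT enzymes turn NMN into NAD, with Nmnat1 in the nucleus, Nmnat2 in the cytosol and on axonal vesicles, and Nmnat3 in mitochondria. NMNAT2 protein is short-lived and reaches the axon by transport, so that it is lost from a cut axon. The rise of NMN over NAD then activates SARM1, an NAD hydrolase whose activity drives the breakdown of the axon. Mycbp2, also called PHR1, is a very large E3 ubiquitin ligase, and with the F-box protein Fbxo45 it promotes the turnover of NMNAT2. The counts are of RNA from whole spots and measure neither these proteins nor NAD.

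The genes lie on separate chromosomes of GRCm38, and positions were taken from GENCODE vM21. Sarm1 (ENSMUSG00000050132.13) spans chromosome 11 from 78472330 to 78497754 on the minus strand. Nmnat1 (ENSMUSG00000028992.13) spans chromosome 4 from 149467572 to 149485202 on the minus strand. Nmnat2 (ENSMUSG00000042751.14) spans chromosome 1 from 152954993 to 153119261 on the plus strand, and Nmnat3 (ENSMUSG00000032456.13) spans chromosome 9 from 98287435 to 98420438 on the same strand. Nampt (ENSMUSG00000020572.7) spans chromosome 12 from 32819545 to 32853349 on the plus strand. Mycbp2 (ENSMUSG00000033004.14) spans chromosome 14 from 103113411 to 103346814, and Fbxo45 (ENSMUSG00000035764.5) spans chromosome 16 from 32230112 to 32247158, both on the minus strand. All 7 are protein coding, and none shares an exon base with another annotated gene. The exons of Mycbp2 cover 19248 bases and those of the other genes between 3037 and 5781 bases.

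The sequences before the start sites of Sarm1, Nmnat2 and Nampt are shown because these genes encode the NAD hydrolase, the axonal NMNAT and the salvage enzyme that makes NMN. They are RefSeq sequences on GRCm38.p6, written 5′ to 3′ on the strand of the gene. Only bases outside every annotated exon are printed. Capitals mark the core of a cAMP response element (TGACG, or CGTCA for the other strand).
Sarm1, chr11:78497755-78498004, minus strand: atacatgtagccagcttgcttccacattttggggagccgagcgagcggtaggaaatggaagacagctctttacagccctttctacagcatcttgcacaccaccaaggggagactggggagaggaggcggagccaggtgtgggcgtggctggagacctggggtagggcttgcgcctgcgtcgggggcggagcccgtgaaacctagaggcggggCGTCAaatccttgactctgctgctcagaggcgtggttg
Nmnat2, chr1:152954851-152954992, plus strand: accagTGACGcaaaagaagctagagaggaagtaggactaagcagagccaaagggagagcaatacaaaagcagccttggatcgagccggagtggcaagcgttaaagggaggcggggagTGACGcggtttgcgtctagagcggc
Nampt, chr12:32820085-32820334, plus strand: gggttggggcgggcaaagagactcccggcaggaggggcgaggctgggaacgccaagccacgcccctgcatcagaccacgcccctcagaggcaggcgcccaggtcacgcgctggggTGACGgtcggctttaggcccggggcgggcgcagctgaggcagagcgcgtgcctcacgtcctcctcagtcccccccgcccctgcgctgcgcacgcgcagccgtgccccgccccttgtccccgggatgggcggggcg
The core occurred 1 time in the Sarm1 window, 2 times in the shorter Nmnat2 window of 142 bases and 1 time in the Nampt window. Over 32851 RefSeq promoters, 17.8% held it in 250 bases and 7.87% in the first 142 of them. The full element TGACGTCA, which contains the core, the AP-1 motif TGANTCA and the E-box CACGTG were found in none of these windows nor in that of Nmnat3. All 3 motifs read the same on both strands, and 1.55%, 6.75% and 6.02% of promoters held them. The window of Nampt was the richest in G and C of these 3, with 75.6%, against 60.8% for Sarm1 and 55.6% for Nmnat2. This window lies inside the annotated span of Nampt, which starts upstream of it, but outside its exons.

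Before injury, Nmnat2 was the most abundant of the 7 genes per exon length. It had 34.1 ± 1.42 RPKM (SD, n = 3), that is, its CPM (its count after scaling the counts on genes of a library to 1000000) divided by its exon length in kilobases. Mycbp2 had 21.3 ± 2.01 RPKM, Fbxo45 20.8 ± 0.665 RPKM, Nampt 20.5 ± 1.48 RPKM and Sarm1 18.1 ± 0.991 RPKM. Per exon length, the levels of Mycbp2, Fbxo45 and Nampt differed by less than the larger SD of each pair. Sarm1 was below Nampt by more than either SD. The closeness of Mycbp2 and Fbxo45 depends on the length used. Over the longest transcript, Mycbp2 had 1.30 times the level of Fbxo45 in control, against 1.03 times over exon length. Nmnat1 had 2.24 ± 0.115 RPKM and Nmnat3 0.0359 ± 0.0199 RPKM. Among the NMNAT enzymes, the cytosolic Nmnat2 was therefore present at 15.2 ± 0.691 times the level per length of the nuclear Nmnat1 in control, and at 14.5 to 19.8 times over the 18 libraries. For the mitochondrial Nmnat3, only 2 to 9 reads were counted per library, and 8 libraries had no more than the detection limit of 3 counts. Without molecular identifiers on the reads, such a limit speaks to the error of counting alone. Nmnat2 exceeded Sarm1 in every library, by 1.86 to 2.41 times per length.

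**Figure D1:**
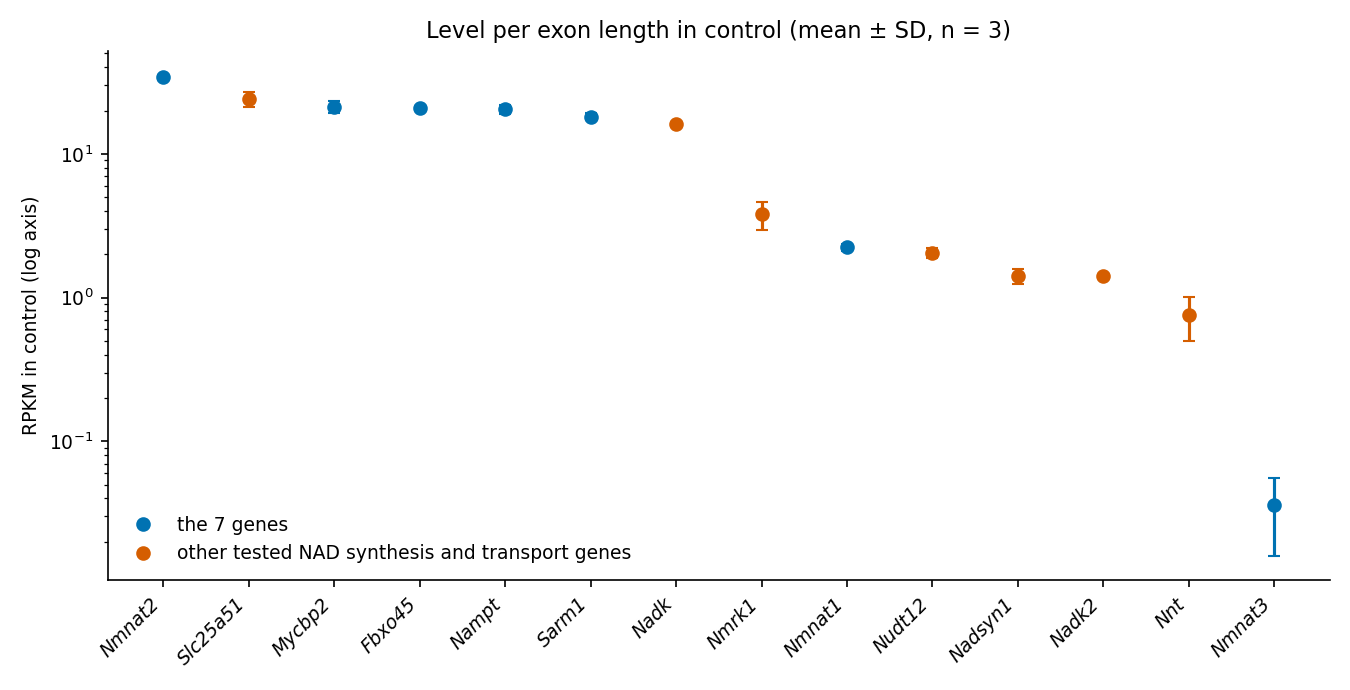
Level per exon length in the 3 control libraries for the 7 genes (blue) and the 7 other tested NAD synthesis and transport genes (orange), in RPKM on a log axis, as mean ± SD. Nmnat2 stands first with 34.1 RPKM, and Nmnat3 last with 0.0359 RPKM.

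Sequencing depth was 9478891 to 23082327 counts on genes, the lowest in 8 HPI replicate 2. The sensory neuron markers (7 genes such as Tubb3, Prph and Avil) summed to 8804 to 9176 CPM in control, 7635 to 8802 CPM at 16 HPI and 7929 to 8423 CPM at 24 HPI, and at 24 HPI 2 of the 7 rose and 2 fell. Markers of satellite glia and Schwann cells (8 genes) summed to 1.53 to 8.19 CPM in control and to at most 13.1 CPM in any library, and of the 3 tested none passed at any time point. Fibroblast markers (6 genes) stayed at or under 19.5 CPM in sum, endothelial markers (3 genes, with Cdh5 at 0 at 8 HPI) at or under 1.36 CPM, and 1 of 4 tested fibroblast markers, Dcn, rose at 16 and 24 HPI. Myeloid markers (5 genes) summed to 3.49 to 5.53 CPM in control and 6.46 to 7.51 CPM at 24 HPI, and 1 of 2 tested, Cd68, rose at 16 and 24 HPI. The part of these shifts in the results was not tested, and in such bulk samples fewer cells of a type cannot be told apart from less RNA per cell. Genes that collect residual rRNA summed to 9945 to 21410 CPM at 16 HPI, the highest in replicate 1, and to at most 10159 CPM in the other groups, and 5.11% of the counts of that library were ambiguous between genes against 2.93% to 3.57% in the others. The injury gene Atf3 rose with a log2 fold change of 2.29 ± 0.22 (SE) at 8 HPI, 3.16 ± 0.21 at 16 HPI and 1.19 ± 0.22 at 24 HPI. Jun rose by 1.03 ± 0.093 at 8 HPI and 0.80 ± 0.093 at 16 HPI, and was at -0.056 at 24 HPI (edgeR adjusted p = 0.743). Gal did not pass at any time, with -0.72 ± 0.32 at 16 HPI (edgeR adjusted p = 0.116). Sprr1a had 0 to 2 counts per library and was not tested.

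After axotomy, the RNA of this pathway changed little, and the 2 genes whose change passed the test were Nampt and Mycbp2. A gene passed with a Benjamini-Hochberg adjusted p under 0.05 in edgeR's quasi-likelihood test with the replicate number as a block, over 13771 genes. None of the 6 tested genes passed at 1 or 3 HPI, where 0.0944% and 0.0436% of all genes passed as higher and 0.182% and 0.145% as lower. At each of these times 1 gene, Mycbp2, had an unadjusted p under 0.05, and DESeq2 passed 0 genes at 1 HPI and 1, Mycbp2, at 3 HPI. At 8 HPI 1 gene rose, Nampt, and 1 fell, Mycbp2, against 3.78% and 3.9% of all genes. At 16 and 24 HPI only Mycbp2 passed among the 6, as lower, against 11.5% and 9.03% of all genes lower and 10.7% and 5.99% higher. No gene of the 6 changed over 2-fold, the further condition of the study, which with the adjusted p 0.029%, 0.029%, 0.537%, 1.49% and 0.821% of all genes met at 1, 3, 8, 16 and 24 HPI. In a test of any change over the 6 groups, which 30% of all genes passed, Mycbp2 (adjusted p = 0.0014) and Nampt (adjusted p = 0.00526) passed, and Nmnat2, Fbxo45, Sarm1 and Nmnat1 did not, with edgeR adjusted p of 0.259, 0.27, 0.409 and 0.641. When the 6 groups were put in the order of a gene's levels, no neighbouring pair of groups passed for any of the 6 genes.

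**Figure D2:**
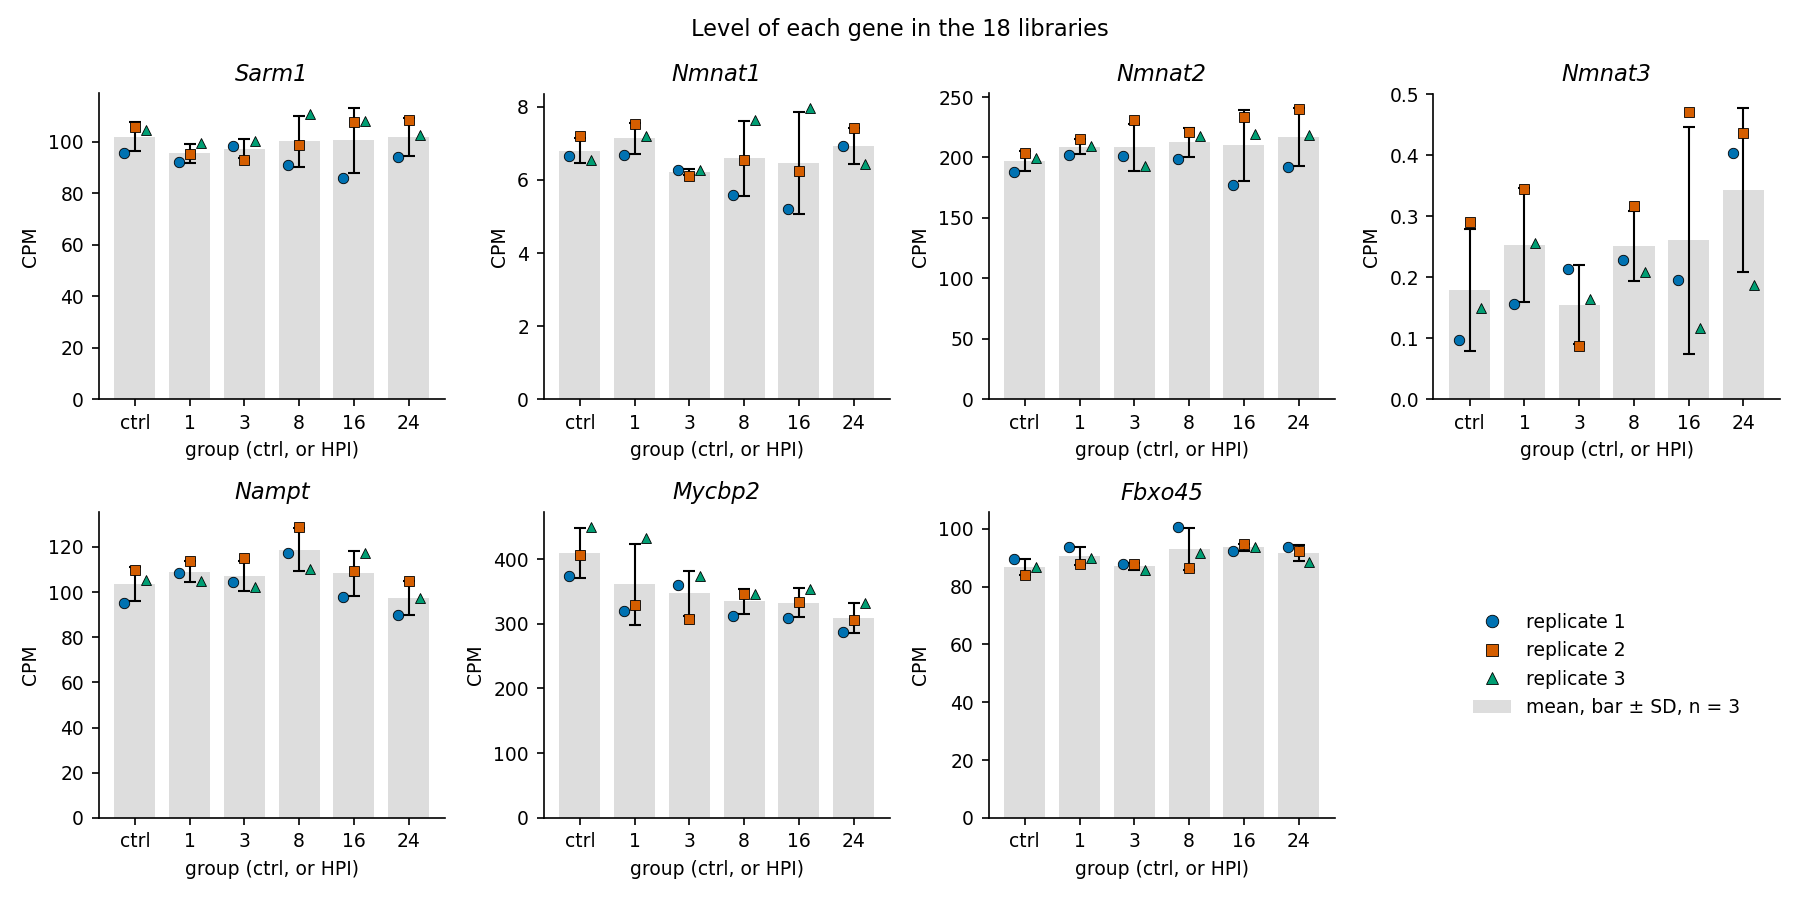
CPM of each of the 7 genes by group, from control (ctrl) to 24 HPI, with a bar for the mean, an error bar for the SD and a point for each of the 3 replicates. Mycbp2 falls from 410 CPM in control to 309 CPM at 24 HPI, Nampt is highest at 8 HPI with 119 CPM, and the axis of Nmnat3 ends below 1 CPM.

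Sarm1, the NAD hydrolase that executes the program, had group means between 95.6 and 102 CPM and did not pass at any time. Its 3 control libraries had 95.6, 106 and 104 CPM. At 1 HPI it had 92.1, 95.3 and 99.5 CPM, and at 3 HPI 98.5, 93.1 and 101 CPM. Both groups overlap control, and 3 of these 6 libraries lie below its lowest library. At 8 HPI Sarm1 had 91.2, 98.7 and 111 CPM, at 16 HPI 86.1, 108 and 108 CPM, and at 24 HPI 94.0, 109 and 103 CPM. The later groups reach both below and above control. The lowest value of all 18 is that of 16 HPI replicate 1. This library also had the most residual rRNA, and a link between the values was not tested. In the normalized values of the test, it differed from control replicate 1 by a log2 value of -0.075. The log2 fold change ran from -0.10 ± 0.048 (SE) at 1 HPI, in 3 of 3 replicates, to -0.014 ± 0.048 at 24 HPI, with adjusted p between 0.389 and 0.888. The 95% confidence intervals of the 5 comparisons lay between 0.870-fold and 1.06-fold of control, at 936 to 2244 counts per library.

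Nmnat2, the axonal NMNAT, was somewhat higher than control at every time point, by less than the test could separate. Control had 188, 203 and 199.7 CPM, and the 24 HPI libraries had 192, 240 and 219 CPM. At 1 HPI it had 202, 215 and 209 CPM, and at 3 HPI 201, 231 and 193 CPM. The injured groups overlap control at each of these times, and replicate 2 is the highest of its group each time. At 8 HPI Nmnat2 had 199, 221 and 218 CPM and at 16 HPI 177, 234 and 219 CPM. The largest difference, at 24 HPI, was a log2 fold change of 0.12 ± 0.047 (SE, 95% CI 0.028 to 0.22, adjusted p = 0.076), with the same direction in 3 of 3 replicates. It passed with upper-quartile factors, where it was 0.16 (adjusted p = 0.028), and in none of the other 16 alternatives. Over the 5 time points the confidence intervals lay between 0.977-fold and 1.17-fold.

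The log2 ratio of Nmnat2 to Sarm1 in CPM, which does not depend on the scaling of a library, was 0.974, 0.942 and 0.935 in the control libraries. It was 1.13, 1.18 and 1.07 at 1 HPI, where all 3 libraries lie above control. At 3 HPI it was 1.03, 1.31 and 0.942, at 8 HPI 1.12, 1.16 and 0.977, at 16 HPI 1.04, 1.12 and 1.02, and at 24 HPI 1.03, 1.14 and 1.09. Within each replicate number the injured library was above its control at all 5 time points, and the 3 HPI group alone overlaps the control group. The differences from control were 0.18, 0.14, 0.14, 0.11 and 0.14 at 1, 3, 8, 16 and 24 HPI. The exact permutation test of 3 against 3 libraries, two-sided, gave p = 0.1, 0.2, 0.1, 0.1 and 0.1. Its smallest possible p is 0.1, it does not use the pairing of libraries by replicate number, and all 5 comparisons share the same controls. At 3 HPI the difference came to 0.036 when replicate 2 of that group was left out, and to 0.22 when its replicate 3 was. This ratio is not corrected for GC content or length, and the longest transcripts have 57.5% GC for Sarm1 and 50.1% for Nmnat2. With smooth offsets for both in each library, the log2 fold change of Sarm1 at 1 HPI was -0.0295, against -0.1003 without. That of Nmnat2 at 1 HPI lay between 0.0558 and 0.0983 over its 17 alternatives.

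Nmnat1, the nuclear enzyme, had 6.80 ± 0.349 CPM (SD, n = 3) in control and group means from 6.22 CPM at 3 HPI to 7.14 CPM at 1 HPI. Its 3 HPI libraries (6.11 to 6.28 CPM) lay below the control libraries (6.54 to 7.20 CPM), with a log2 fold change of -0.14 ± 0.12 (SE) and an adjusted p of 0.634. With 62 to 153 counts per library, its confidence intervals were the widest of the 6 genes and reached from 0.767-fold to 1.24-fold. Nmnat3 had 9 counts in all 3 control libraries together and 20 in the 3 libraries of 24 HPI, and no fold change is given for it.

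Nampt, the enzyme that makes NMN and sets the rate of the salvage route, rose for a time at 8 HPI. Control had 95.2, 110 and 105 CPM. The 8 HPI libraries had 117, 129 and 110.2 CPM, all above the highest control library at 109.8 CPM. The lowest of them is close to that control library, and these CPM do not use the normalization factors of the test. At 1 HPI Nampt had 108, 114 and 105 CPM, at 3 HPI 104, 115 and 102 CPM, at 16 HPI 97.9, 109 and 118 CPM, and at 24 HPI 90.0, 105 and 97.2 CPM. The groups other than 8 HPI overlap control. The log2 fold change at 8 HPI was 0.20 ± 0.054 (SE, 95% CI 0.092 to 0.32, edgeR adjusted p = 0.0235), or 1.15-fold, and it was 0.33, 0.22 and 0.063 within replicates 1, 2 and 3. At 24 HPI the log2 fold change was -0.098 ± 0.054 (adjusted p = 0.241). The level at 24 HPI was lower than at 8 HPI by a log2 difference of -0.30 ± 0.054 (adjusted p = 0.000693), and at 16 HPI by -0.16 ± 0.054 (adjusted p = 0.0485), where 7.34% and 7.88% of all genes were lower.
The rise at 8 HPI did not pass without the replicate block (0.21, adjusted p = 0.411) or with only the 2 compared groups in the fit (0.20, adjusted p = 0.0963). It also did not pass without control replicate 1 (0.16, adjusted p = 0.121), control replicate 2 (0.22, adjusted p = 0.0518), 8 HPI replicate 1 (0.16, adjusted p = 0.135) or 8 HPI replicate 2 (0.18, adjusted p = 0.0879), each by edgeR.

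**Figure D3:**
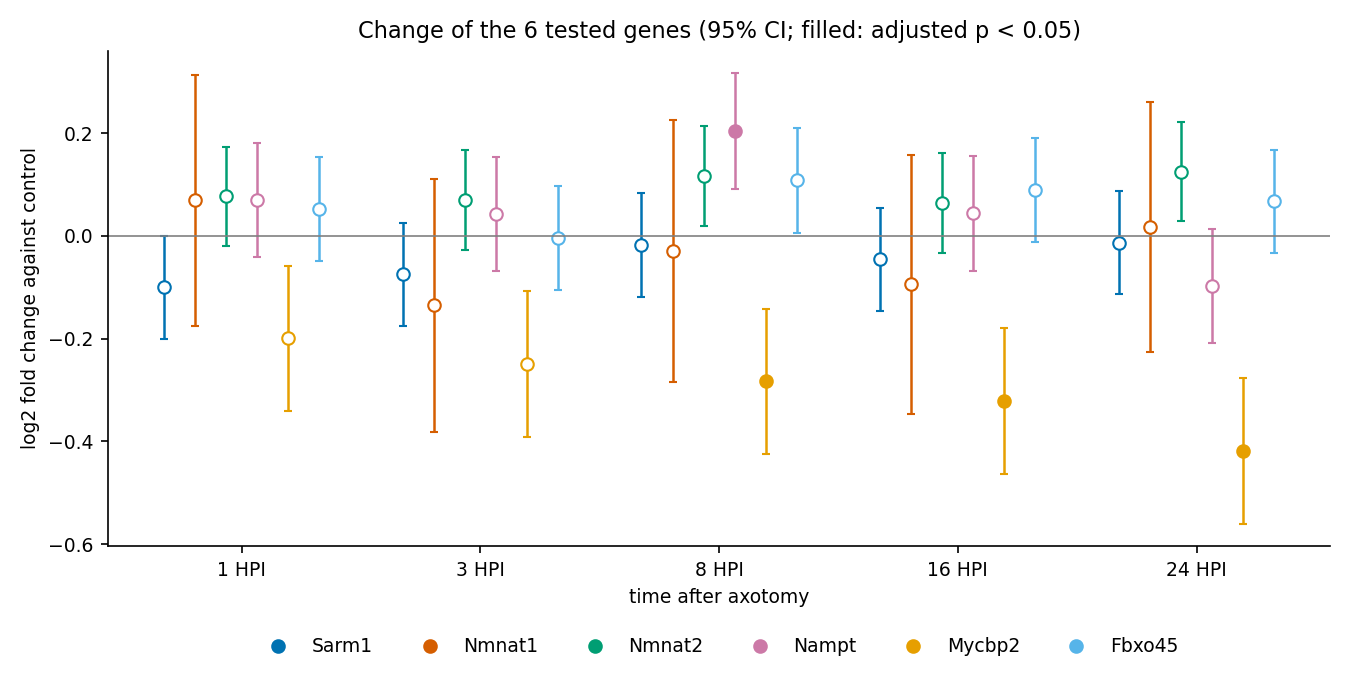
Log2 fold change against control of the 6 tested genes at each time after axotomy, with 95% confidence intervals, where filled points passed at an adjusted p under 0.05. The filled points are Nampt at 8 HPI (0.20) and Mycbp2 at 8, 16 and 24 HPI (-0.28, -0.32 and -0.42), and the intervals of Nmnat1 are the widest.

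Mycbp2, the ligase that promotes turnover of NMNAT2, was lower than control at every time point and fell to 0.748-fold by 24 HPI. Control had 373, 406 and 450.3 CPM. At 1 HPI it had 319, 330 and 433 CPM, and at 3 HPI 359, 308 and 374 CPM. Of these 6 libraries, 4 lie below the lowest control library, and both groups still overlap control.
At 8 HPI Mycbp2 had 313, 346 and 345 CPM, at 16 HPI 310, 334 and 354 CPM, and at 24 HPI 288, 306 and 333 CPM. All 9 of these libraries lie below the lowest control library. The log2 fold change was -0.20 ± 0.068 (SE, adjusted p = 0.217) at 1 HPI, -0.25 ± 0.068 (adjusted p = 0.107) at 3 HPI, -0.28 ± 0.068 (adjusted p = 0.0139) at 8 HPI, -0.32 ± 0.068 (adjusted p = 0.00155) at 16 HPI and -0.42 ± 0.068 (95% CI -0.56 to -0.28, adjusted p = 0.000295) at 24 HPI. The direction was the same in 3 of 3 replicates at each time. The calls at 16 and 24 HPI were made in all 17 alternatives each. That at 8 HPI was not made without the replicate block (-0.29, adjusted p = 0.263), nor without control replicate 2 (-0.25, adjusted p = 0.0703), control replicate 3 (-0.28, adjusted p = 0.0549), 8 HPI replicate 1 (-0.28, adjusted p = 0.0545) or 8 HPI replicate 3 (-0.23, adjusted p = 0.109). At 1 HPI it passed with only the 2 groups in the fit (adjusted p = 0.0148), and at 3 HPI with DESeq2 (adjusted p = 0.0289).

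Mycbp2 has the longest transcript of the 7 genes, 15233 bases, and transcript length moved with the fold changes of all genes. The 176 tested genes with a longest transcript of 12000 bases or more had a median log2 fold change of -0.16, -0.16, -0.19, -0.15 and -0.23 at 1, 3, 8, 16 and 24 HPI, against 0.017, 0.019, 0.017, 0.011 and 0.021 for the 5485 genes of 2000 to 4000 bases. At 24 HPI, 81 of these 176 genes passed as lower, and Mycbp2 was below their lower quartile of -0.39. At 1, 3 and 16 HPI it lay between their median and their lower quartile of -0.25, -0.26 and -0.34. At 8 HPI it was level with their lower quartile of -0.28. With smooth offsets for GC content and length in each library, the log2 fold change of Mycbp2 was -0.14 at 8 HPI (adjusted p = 0.0698), -0.20 at 16 HPI (adjusted p = 0.00304) and -0.22 at 24 HPI (adjusted p = 0.00376). Length offsets alone, added after the data were seen, gave -0.15, -0.21 and -0.23, and GC offsets alone -0.27, -0.33 and -0.41.

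**Figure D4:**
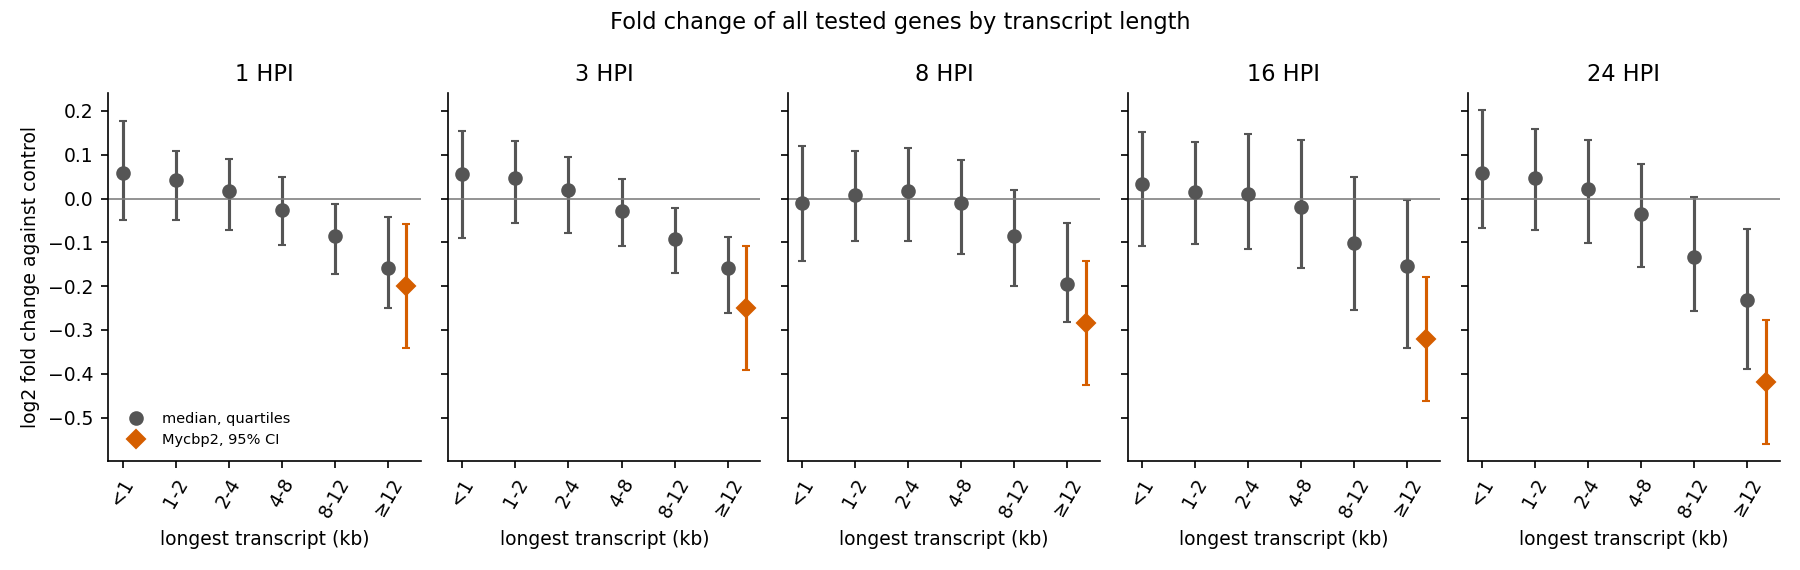
Median log2 fold change against control of all tested genes by the length of their longest transcript in kilobases, with quartiles as bars, and Mycbp2 with its 95% confidence interval as a diamond. The median of the longest class (12 kb or more) is between -0.23 and -0.15 at all 5 time points, and Mycbp2 lies below it each time.

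Fbxo45, the F-box partner of Mycbp2, did not pass at any time. It had 89.4, 83.9 and 86.9 CPM in control and 92.5 to 94.8 CPM at 16 HPI, where all 3 libraries lay above control. The log2 fold change was 0.089 ± 0.049 (SE, adjusted p = 0.214) at 16 HPI, and it ran from -0.0042 at 3 HPI to 0.11 at 8 HPI (adjusted p = 0.2). The confidence intervals lay between 0.930-fold and 1.16-fold of control. The log2 ratio of Mycbp2 to Fbxo45 within a library, a value chosen after the data were seen, was 2.24 ± 0.159 (SD, n = 3) in control and 1.75 ± 0.149 at 24 HPI, lower in 3 of 3 replicates. The differences from control were -0.25, -0.25, -0.39, -0.41 and -0.48 at 1, 3, 8, 16 and 24 HPI, with p = 0.2, 0.2, 0.1, 0.1 and 0.1 in the exact permutation test, two-sided, where 0.1 is the smallest possible and all comparisons share the controls. This ratio is not corrected for length, and it sets the transcript of Mycbp2 against one of Fbxo45 whose exons cover 4179 bases.

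Of the other NAD synthesis and transport genes, 20 were listed, 19 were found and 7 were tested. Tdo2, Ido1, Kmo, Kynu, Haao and Qprt of the de novo route from tryptophan, and Naprt of the route from nicotinic acid, were below the filter, with at most 15 counts in any library. Afmid, also of the de novo route, was below it with at most 22 counts. Nadsyn1, the NAD synthetase in which both routes end, was tested and had 1.41 ± 0.177 RPKM in control. In control, the mitochondrial NAD carrier Slc25a51 had 24.2 ± 2.94 RPKM, the NAD kinase Nadk 16.1 ± 0.477 RPKM and the nicotinamide riboside kinase Nmrk1 3.8 ± 0.862 RPKM, against 2.24 ± 0.115 RPKM for Nmnat1. None of the 7 passed before 24 HPI, where 1 rose, against 5.99% of all genes. This was Nadk2, the mitochondrial NAD kinase, with 7.18 CPM in control and 9.32 CPM at 24 HPI (log2 fold change 0.37 ± 0.11, SE, adjusted p = 0.0272). It did not pass with DESeq2 (0.37, adjusted p = 0.0753), nor with control replicate 1 or 3 or 24 HPI replicate 1 or 3 left out (0.32 to 0.36). The median log2 fold change of the 7 genes at 24 HPI was 0.046, against 0.002 for all genes.

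Of 24 genes listed with the NAD-consuming enzymes, besides Sarm1, 19 were tested. The list holds Nnmt, a nicotinamide methyltransferase that does not consume NAD and was below the filter. The NAD hydrolases Cd38 and Bst1 were below the filter, with at most 12 counts in any library. None passed at 1, 3 or 8 HPI, 2 rose and 2 fell at 16 HPI, and 1 fell at 24 HPI. Of all genes, 10.7% rose and 11.5% fell at 16 HPI, and 5.99% rose and 9.03% fell at 24 HPI. The median log2 fold change of the 19 genes lay between -0.017 and 0.011 over the 5 time points. Without the replicate block, 1 rose and 1 fell at 16 HPI and 0 passed at 24 HPI. Sirt1, a nuclear deacetylase, rose from 11.1 CPM in control to 15.4 CPM at 16 HPI (log2 fold change 0.46 ± 0.084, SE, adjusted p = 0.000389). Sirt5, a mitochondrial desuccinylase, fell from 9.26 to 6.99 CPM (-0.42 ± 0.11, adjusted p = 0.00644). Parp16, an ADP-ribosyltransferase of the endoplasmic reticulum, rose from 2.01 to 3.27 CPM at 16 HPI (0.68 ± 0.21, adjusted p = 0.0264). Its log2 fold change was 0.42 (adjusted p = 0.21) without 16 HPI replicate 1, and it also did not pass when 16 HPI replicate 3 or any single control replicate was left out (0.65 to 0.72), nor with DESeq2 (adjusted p = 0.0655). The tankyrase Tnks fell at 16 HPI (-0.21 ± 0.060, adjusted p = 0.0136) and at 24 HPI (-0.23 ± 0.060, adjusted p = 0.0134). With GC and length offsets the value at 24 HPI was -0.095 (adjusted p = 0.215), and it did not pass without control replicate 2 (-0.17) or 24 HPI replicate 3 (-0.18). Parp1, the most abundant of these enzymes per length with 28.2 ± 1.99 RPKM in control, did not pass at any time.

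All 16 partners of the PHR ligase and regulators of Nmnat2 and Sarm1 were tested. None passed at 1 or 3 HPI, 1 rose at 8 HPI, 1 rose and 2 fell at 16 HPI, and 2 rose at 24 HPI. Of all genes, 3.78%, 10.7% and 5.99% rose and 3.9%, 11.5% and 9.03% fell at 8, 16 and 24 HPI. The median log2 fold change of the 16 genes at 24 HPI was 0.036 against 0.002 for all genes. Without the replicate block, 0 of them passed at any time. Map3k12, which encodes the axon injury kinase DLK, a further target of the ligase, fell at 16 HPI from 67.1 to 59.0 CPM (log2 fold change -0.21 ± 0.059, SE, adjusted p = 0.012). It did not pass without control replicate 3 (-0.16) or 16 HPI replicate 1 (-0.17). Zdhhc17, which attaches palmitate to NMNAT2, fell from 71.3 to 62.9 CPM (-0.20 ± 0.055, adjusted p = 0.0101), and did not pass without control replicate 3 (-0.17). Sdc2, a heparan sulfate proteoglycan, rose at 16 HPI (0.44 ± 0.12, adjusted p = 0.0137) and at 24 HPI (0.41 ± 0.12, adjusted p = 0.0246). The value at 16 HPI did not pass without control replicate 1 or 2 (0.39 each) or 16 HPI replicate 1 (0.30). Ube2d3, a ubiquitin-conjugating enzyme, rose at 8 HPI (0.19 ± 0.058, adjusted p = 0.0498) and at 24 HPI (0.18 ± 0.058, adjusted p = 0.0417), and at 8 HPI it did not pass in 11 alternatives, among them each control replicate and 8 HPI replicate 1 or 3 left out (0.15 to 0.22). Its longest transcript has 19300 bases, and with GC and length offsets the value at 8 HPI was 0.36 (adjusted p = 0.00402). Stmn2, a microtubule regulator that is lost from cut axons as NMNAT2 is, was the most abundant gene of the list with 1554 ± 99 CPM in control, and its log2 fold change ran from -0.027 to 0.13 with adjusted p of 0.385 or more.

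Of the 16 genes of axon breakdown and axonal calcium, all were tested. None passed at 1 or 3 HPI. At 8 HPI 1 rose and 2 fell, at 16 HPI 2 rose and 6 fell, and at 24 HPI 4 rose and 5 fell. Of all genes, 3.78%, 10.7% and 5.99% rose and 3.9%, 11.5% and 9.03% fell at 8, 16 and 24 HPI. At 24 HPI the median log2 fold change of the list was -0.10 against 0.002 for all genes. The genes that fell most on this list were those of calcium pumps and channels. Atp2b1, a plasma membrane calcium pump, fell from 463 to 339 CPM at 16 HPI (log2 fold change -0.47 ± 0.053, SE, adjusted p = 2.3e-06), and Atp2b2, a further such pump, from 156 to 106 CPM at 24 HPI (-0.57 ± 0.067, adjusted p = 1.21e-05). The P/Q-type channel gene Cacna1a fell from 118 to 86.8 CPM at 8 HPI (-0.42 ± 0.075, adjusted p = 0.00149), and the N-type channel gene Cacna1b from 435 to 316 CPM at 24 HPI (-0.47 ± 0.081, adjusted p = 0.000523). The calls of both channel genes were lost without the replicate block (adjusted p = 0.703 and 0.0843). The transcripts of these 4 genes are long as well, at 7130 to 9736 bases, and with GC and length offsets their log2 fold changes were -0.45, -0.44, -0.31 and -0.33, and all 4 passed. Of the genes that rose at 24 HPI, 3 are named here, chosen after their values were seen. They were Bax, which permeabilises mitochondria (0.21 ± 0.064, adjusted p = 0.0287), Cast, the inhibitor of calpains (0.20 ± 0.062, adjusted p = 0.0343), and Capn2, a calpain (0.15 ± 0.049, adjusted p = 0.0457). None of these 3 passed with DESeq2 (adjusted p = 0.0562, 0.0651 and 0.0504), and Bax and Cast passed in 10 and Capn2 in 6 of 17 alternatives each, a check added after the data were seen. The number of genes of the list that rose at 24 HPI was 1 with DESeq2, 1 without control replicate 2 or 24 HPI replicate 2, 2 without control replicate 1 or 3 or 24 HPI replicate 1, and 3 without 24 HPI replicate 3. Without the replicate block, 2 genes of this list fell and 0 rose at 16 HPI, and 1 fell and 0 rose at 24 HPI. With GC and length offsets, 2 rose and 5 fell at 24 HPI.

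For each tested gene, the genes whose level ran most alike over the 18 libraries, in log2 CPM with the replicate number removed, are given as a description. All points share the same libraries. For Mycbp2 these were Pclo (Pearson r = 0.983), Ahnak2 (r = 0.961) and Herc1 (r = 0.961). Their longest transcripts are of 20084, 5443 and 15153 bases. For Nampt they were Arl14ep (r = 0.913), Herpud1 (r = 0.910) and Vegfa (r = 0.905). The values were lower for the genes that did not pass. For Sarm1 they were Uhrf1bp1l (r = 0.785), Msn (r = 0.779) and Fermt2 (r = 0.772). Nmnat2 ran most like Rnaseh2a (r = 0.816), Ccnb1 (r = 0.811) and Tgoln1 (r = 0.807). Of these, Ccnb1 had only 0.640 CPM in control, under the 1 CPM that the filter asks of 3 libraries. Nmnat1 ran most like Samd10 (r = 0.870), C330024D21Rik (r = 0.808) and Rbbp4 (r = 0.747), and Fbxo45 most like Zfp942 (r = 0.859), Zfp397 (r = 0.847) and Zfand5 (r = 0.834).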

How the data were processed

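RNA was sequenced from 18 eDRG spot cultures, 3 in each of 6 groups. The authors deposited raw counts of reads per gene, without normalization. Per the submitters' processing notes and the paper's methods, reads were aligned to mm10 with STAR, and the notes name HTSeq as the counter where the methods name featureCounts. Of 47643 identifiers, 47224 matched GENCODE vM21. The share of counts on the 5 entries that name no gene was 25.2% to 33.2%, and these were left out. Depth was 9478891 to 23082327 counts on genes, and no 2 libraries were identical.

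The 13771 genes with more than 1 CPM in 3 or more libraries were normalized by TMM and fitted together in edgeR 4.0.16 (R 4.3.3) with terms for group and replicate number. Contrasts of each injured group with control used the quasi-likelihood test, two-sided, with Benjamini-Hochberg adjustment over all genes tested, as were all other pairs of groups. Deviations from the group means correlated between libraries of different groups with the same replicate number (mean r = 0.619, 0.484 to 0.765 over 45 pairs), so the numbers were taken to pair the samples. The mean r between different numbers (-0.308 over 90 pairs) adds no separate evidence, because the deviations within a group cancel out. RPKM was taken over total exon length. The CPM printed for libraries and groups carry no TMM factors, unlike the fold changes. Ratios were compared by exact permutation tests of unpaired libraries, which do not use the replicate number. Motifs were searched in RefSeq promoter sequences.

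Although the rule for the 7 genes uses no measured value, the genes, lists, tests and alternatives were chosen with earlier results of these data known. Named were the 7 genes, the 3 most alike genes for each, and from each of 4 pathway lists up to 4 genes with the largest change that passed in the same direction in all 3 replicates. A few further genes were picked with their values in view, as said beside them. The alternatives were no replicate block, DESeq2 1.42.0 size factors or its Wald test, upper-quartile factors, other filters (at least 10 counts in all, or over 1 CPM in all 18 libraries), residual rRNA and mitochondrial genes left out, GC and length offsets, the 2 compared groups alone, RPKM over the longest transcript, and each library left out in turn. Offsets for GC or length alone, and the alternatives for Nampt against 8 HPI and for Bax, Cast and Capn2, were added after the data were seen. Some single genes of the lists are counted but not reported here.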

Additional observations from a re-analysis of the deposited data

Results flagged for a closer look

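The level of Nampt differed between 24 and 8 HPI, by a test of the difference itself, and less stably between 16 and 8 HPI. Of the 6 groups, Nampt was highest at 8 HPI and lowest at 24 HPI. The adjusted p corrects over genes, and not over the pairs of groups or the choice of these pairs. The log2 difference between 16 and 8 HPI was -0.1606 (0.895-fold, edgeR adjusted p = 0.0485), and that between 24 and 8 HPI was -0.3016 (0.811-fold, adjusted p = 0.000693). Set against control, the log2 fold change of Nampt at 8 HPI was 0.20 and passed, and the values of 0.043 at 16 HPI and -0.098 at 24 HPI did not. The difference between 24 and 8 HPI passed in every alternative except that without the replicate block (-0.31, adjusted p = 0.0673), and lay between -0.36 and -0.25. The difference between 16 and 8 HPI did not pass in 11 of 17 alternatives, among them the fit without the replicate block (-0.17, adjusted p = 0.37), the DESeq2 Wald test (-0.16, adjusted p = 0.0613) and the fits without 8 HPI replicate 1 (-0.12) or replicate 2 (-0.14) and without 16 HPI replicate 1 (-0.16) or replicate 2 (-0.10).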

How the results depend on the processing

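Of 510 alternative values of the 30 member fold changes, 467 kept their direction and side of the threshold, 13 lost the call, 3 gained it and 27 changed sign, of which 0 were past the threshold. The 27 belong to 7 comparisons in which the gene did not pass. Fbxo45 at 3 HPI was 0.0023 with upper-quartile factors, 0.0117 with at least 10 counts, 0.0146 with GC and length or GC offsets and 0.0084 with length offsets. Sarm1 was 0.0348 with GC and length and 0.0241 with GC offsets at 8 HPI, and at 24 HPI 0.0176 with upper-quartile factors, 0.0022 with at least 10 counts, 0.0258 with GC and length and 0.005 with length offsets. Nmnat1 at 24 HPI was -0.009 with length offsets. With single libraries left out, the range was -0.0379 to 0.0448 for Fbxo45 at 3 HPI, -0.064 to 0.007 and -0.0348 to 0.0189 for Sarm1 at 8 and 24 HPI, -0.0081 to 0.109, -0.1439 to 0.0523 and -0.0624 to 0.1091 for Nmnat1 at 1, 8 and 24 HPI, and -0.0119 to 0.1018 for Nampt at 16 HPI. Of the 13, 6 belong to Nampt and 7 to Mycbp2 at 8 HPI, where length offsets alone gave -0.15 for Mycbp2 (adjusted p = 0.069). Without the replicate block, 0 genes in all passed at 1 HPI in edgeR (456 at an unadjusted p under 0.05, and 135 with DESeq2 and the block). At 3, 8, 16 and 24 HPI, 1, 61, 706 and 153 genes passed without it, against 38, 26, 1058, 3055 and 2068 with it at the 5 times. At 8 HPI 0 of the 6 genes then passed (2 at an unadjusted p under 0.05, and 2 with DESeq2 and the block). DESeq2 passed 135 genes at 1 HPI and 153 at 3 HPI, with 1 of the 6 at 3 HPI. With at least 10 counts in all, 65 and 43 genes passed at 1 and 3 HPI, with GC and length offsets 12 and 16, with length offsets alone 15 and 11, and with GC offsets alone 44 at 3 HPI. With only the 2 groups in the fit, 448 genes and 1 of the 6 passed at 1 HPI, and 570 genes and 1 of the 6 at 8 HPI. At 8 HPI, 1 of the 6 also passed with GC and length offsets and with length offsets alone, and at 24 HPI 2 passed with upper-quartile factors. Leaving out each library in turn gave 3 to 65 genes for 1 HPI, 1 to 148 for 3 HPI, 447 to 811 for 8 HPI, 2272 to 2738 for 16 HPI and 1237 to 1554 for 24 HPI, and 0 to 1 of the 6 at 8 HPI. Of the 13 named pathway genes, 9 did not pass without the replicate block, and Sirt1, Sirt5, Atp2b1 and Atp2b2 did. The cause of these shifts was not tested. Over the longest transcript, the control RPKM was 42.5 for Nmnat2, 26.9 for Mycbp2, 22.9 for Nampt, 20.9 for Sarm1 and 20.8 for Fbxo45. Depth limits Nmnat3, at 2 to 9 counts per library, and Nmnat1.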
